A study of Mus musculus with 6 samples.

Results

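Genes of the Atf4 amino acid response and of the unfolded protein response were followed in OP9, a stromal cell line from mouse bone marrow. The 39 genes form a fixed list of names, and each was matched to probe sets that carry its symbol, or a synonym of it, and no other gene. All 39 were measured and passed the filter on dim probe sets, out of 16871 genes tested. For the comparison they were taken as 4 branches: 10 enzymes of serine, one-carbon, proline and cysteine synthesis, 11 genes for Atf4 and its stress targets, 4 sensors and transducers of the unfolded protein response, and 14 chaperones and degradation factors of the endoplasmic reticulum.

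Total RNA was hybridised to 6 exon arrays (Affymetrix Mouse Exon 1.0 ST). Both groups were OP9 cells with a stably integrated pLKO.1-puro lentiviral hairpin: 3 arrays held cells with a scrambled hairpin (control shRNA) and 3 held cells with a hairpin against Smoothened (Smo), the obligate transducer of Hedgehog signals. OP9 cells come from op/op mice, which lack functional macrophage colony-stimulating factor, and this holds for both groups. No added stress or change of medium is named in the labels, so the comparison is between the 2 lines as they were sampled. Each line was sampled in triplicate, and the labels do not say whether the triplicates were separate cultures or transductions. The p-values then rest on the spread among 3 RNA samples, which may be technical, and other differences between the lines cannot be told apart from that of the hairpin.

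Smo, the target of the hairpin, had gene values of 12.22 to 12.29 in control arrays and 11.32 to 11.44 in Smo shRNA arrays (log2 difference -0.88, SE 0.04, limma adjusted p = 1.13e-09). Across genes, which are not independent replicates, arrays correlated at 0.996 to 0.998 within a line and at 0.979 to 0.981 between lines. Among all genes tested, 17.4% were lower and 21.3% higher in Smo shRNA cells (limma adjusted p under 0.05). Of 15 stromal markers, 9 (60%) were lower and 0 higher. Their control means ran from 7.27 to 14.09 with a median of 10.86. Thy1, Nt5e and Lepr (7.27, 7.30 and 7.31) were as dim as the haematopoietic markers. Of 12 tested haematopoietic markers, 0 passed the limma test and 0 had an unadjusted p under 0.05 (1 was called lower without a variance trend and 2 with array weights), with control means between 7.30 and 8.41. The mean over those 12 markers was 7.80 to 7.88 in control arrays and 7.76 to 7.90 in Smo shRNA arrays.

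Atf4 is a transcription factor whose protein rises when the initiation factor eIF2 is phosphorylated, by Gcn2 when amino acids run short or by Perk (Eif2ak3) when unfolded proteins gather in the endoplasmic reticulum. It raises genes that make and import amino acids and genes of the stress programme. The unfolded protein response has further arms: Ire1 (Ern1) splices Xbp1 RNA, and Atf6 is cut in the Golgi to release a transcription factor, and both raise chaperones and factors that degrade misfolded proteins. The arrays measure RNA, so Atf4 translation, Atf6 cleavage and Xbp1 splicing were not measured here.

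The branches moved in different directions. Gene values are on a log2 scale, a difference is Smo shRNA minus control shRNA, and a gene was called when its limma adjusted p, taken over all genes tested, was under 0.05. Among the 39 genes, 17 were higher, 13 were lower and 9 did not pass. Across all genes tested, 21.3% were called higher and 17.4% lower, or 38.6% in either direction.

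Of the 10 biosynthetic enzymes, 8 were higher and 1 was lower, with a median difference of 0.42. Of the 11 Atf4 branch genes, 7 were higher and 1 was lower, with a median of 0.19. Among the 4 sensors and transducers, 1 was higher and 1 was lower, with a median of 0.13. The 14 chaperones and degradation factors ran the other way, with 1 higher, 10 lower and a median of -0.15. The median over all genes tested was 0.01. The members were chosen with results of these data known, so these counts are descriptions and no test was made over a list.

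**Figure D1:**
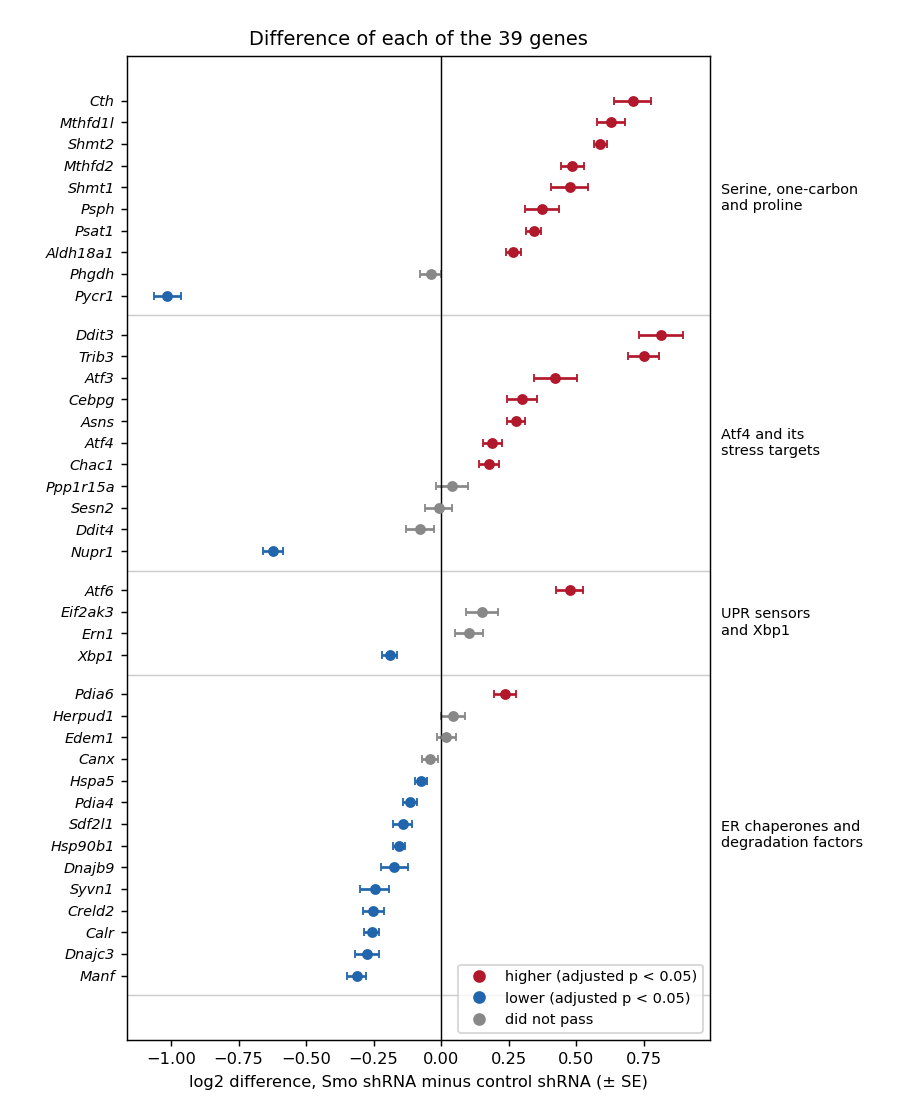
Log2 difference (x axis, Smo shRNA minus control shRNA, bar ± moderated SE) of each of the 39 genes (y axis), sorted within the 4 branches, with red for called higher, blue for called lower and grey for genes that did not pass. Most serine, one-carbon and Atf4 branch genes sit to the right of 0 and most chaperones to the left, with Pycr1 (-1.01) and Nupr1 (-0.62) on the far left of their branches.

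Averaged over its genes, the biosynthetic branch read 11.09, 10.99 and 11.12 in the 3 control arrays and 11.36, 11.35 and 11.34 in the 3 Smo shRNA arrays. The chaperone branch read 12.26, 12.20 and 12.26 in control arrays and 12.12, 12.12 and 12.10 in Smo shRNA arrays. In neither branch did the 2 groups overlap. Control replicate 2 was the lowest control array in all 4 branches. Without it, 8 biosynthetic enzymes were still called higher and 10 chaperone branch genes lower.

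**Figure D2:**
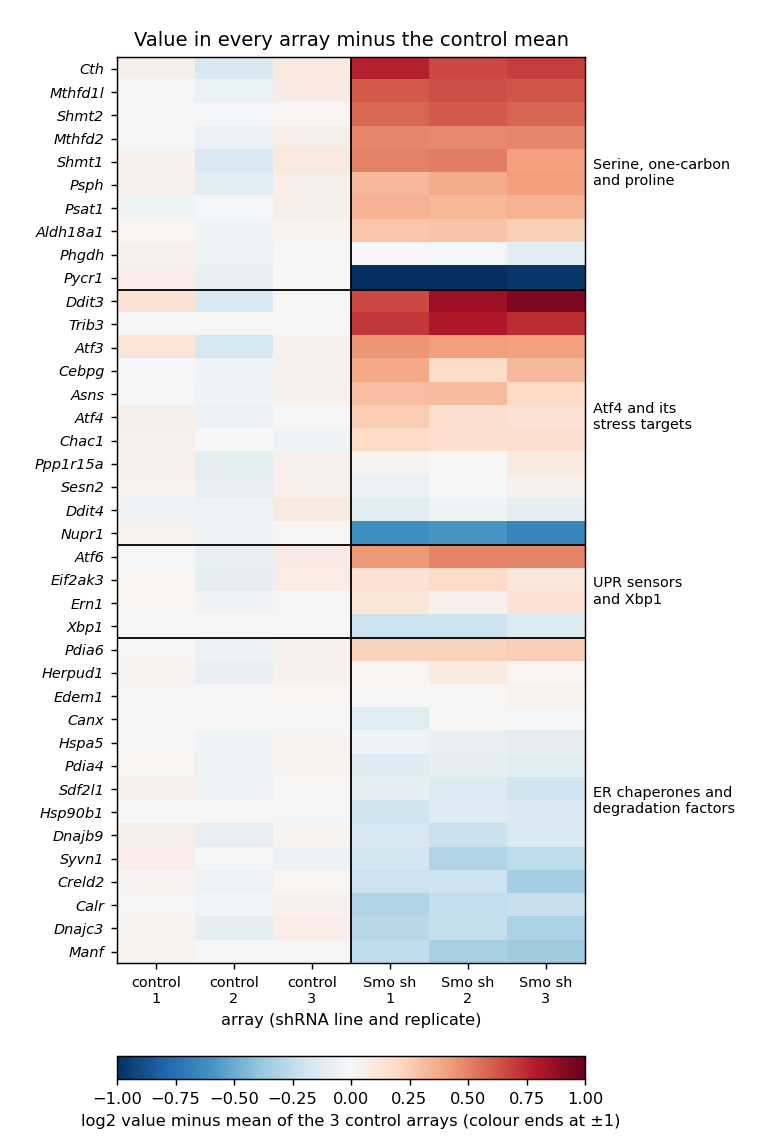
Gene value in each of the 6 arrays (columns) minus the mean of the 3 control arrays, in log2 units, for the 39 genes (rows), with red above and blue below that mean and a colour scale that ends at -1 and 1. Smo shRNA columns are red over most of the upper branches and pale blue over the chaperones, and the control columns stay near 0.

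The enzymes of serine synthesis did not move together. Phgdh, which takes 3-phosphoglycerate into the pathway, read 11.98, 11.89 and 11.94 in control arrays and 11.95, 11.93 and 11.83 in Smo shRNA arrays. The groups overlapped, and the difference of -0.04 did not pass (95% interval -0.12 to 0.05, adjusted p = 0.52). With the median of probe sets in place of median polish, Phgdh was called lower (-0.15, adjusted p = 0.0432).

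Psat1, the aminotransferase of the next step, read 12.89, 12.92 and 12.99 in control arrays and 13.28, 13.26 and 13.28 in Smo shRNA arrays. All 3 Smo shRNA values lay above all control values, and the gene was 1.27-fold higher (0.34, SE 0.03, adjusted p = 3.58e-07). Psph, the phosphatase that releases serine, was 1.30-fold higher (0.37, SE 0.06, adjusted p = 0.000247).

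The 4 folate enzymes of the list, which take 1-carbon units from serine, were all called higher. Shmt2, the mitochondrial serine hydroxymethyltransferase, read 12.64, 12.63 and 12.65 in control arrays and 13.21, 13.25 and 13.23 in Smo shRNA arrays. Its spread within a line was far below the gap between lines, a 1.5-fold increase (0.59, SE 0.02, adjusted p = 5.69e-10). Mthfd2, the mitochondrial methylenetetrahydrofolate dehydrogenase, read 10.99, 10.93 and 11.05 in control arrays and 11.48, 11.47 and 11.48 in Smo shRNA arrays, or 1.40-fold higher (0.49, SE 0.04, adjusted p = 6.02e-07).

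Mthfd1l, which releases formate in mitochondria, read 9.83, 9.78 and 9.92 in control arrays and 10.45, 10.49 and 10.47 in Smo shRNA arrays. Here too the groups were apart, with a 1.55-fold increase (0.63, SE 0.05, adjusted p = 4.67e-07). Shmt1, the cytosolic counterpart of Shmt2, was 1.39-fold higher (0.48, SE 0.07, adjusted p = 6.94e-05).

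Genes of proline synthesis went both ways. Aldh18a1, which makes the pyrroline-5-carboxylate precursor, was 1.20-fold higher (0.27, SE 0.03, adjusted p = 5.07e-06). Pycr1, the mitochondrial reductase that turns this precursor into proline, read 11.46, 11.32 and 11.40 in control arrays and 10.40, 10.31 and 10.42 in Smo shRNA arrays. No other of the 39 genes differed by as much: Pycr1 was 2.02-fold lower (-1.01, SE 0.05, adjusted p = 3.27e-09). Pycr3 (Pycrl in the table used), another reductase of this precursor and a gene of the wider list, was higher by 0.29 (SE 0.06, adjusted p = 0.00118) and was chosen after its values were seen. Cth, which makes cysteine from cystathionine, was 1.63-fold higher (0.71, SE 0.07, adjusted p = 1.96e-06).

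Genes for DNA replication moved with this branch. Of 20 tested S phase genes, 19 were higher, with a mean over the list of 11.04 to 11.11 in control arrays and 11.54 to 11.56 in Smo shRNA arrays. The helicase genes Mcm2 and Mcm5 were higher by 0.95 and 0.69, and Uhrf1, which maintains DNA methylation, by 0.54. The part of these genes in the result for the enzymes was not tested.

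Among 26 tested other genes of folate, serine, glycine and proline metabolism, 11 were higher and 3 were lower, with a median of 0.02. The largest increase was that of Mthfd1, the cytosolic trifunctional folate enzyme (1.05, adjusted p = 1.58e-08). Ahcy, which breaks down S-adenosylhomocysteine, was higher by 0.62 (adjusted p = 1.08e-07), and Gart, an enzyme of purine synthesis that uses formyl folate, by 0.50 (adjusted p = 2.03e-07). The 3 lower genes were Aldh1l1, which oxidises formyl folate in the cytosol (-1.12, adjusted p = 4.76e-09), Sfxn3 (-0.42, adjusted p = 2.66e-07), and Oat, ornithine aminotransferase (-0.13, adjusted p = 0.0193). Shmt2 and Mthfd2 have their cytosolic relatives Shmt1 and Mthfd1 on the higher side, while Mthfd2l (0.07) and Aldh1l2 (-0.05), both mitochondrial, did not pass.

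In the Atf4 branch the regulator itself changed little. Atf4 read 12.98, 12.86 and 12.92 in control arrays and 13.18, 13.09 and 13.07 in Smo shRNA arrays. The groups did not overlap, but the step between them was small, 1.14-fold (0.19, SE 0.03, adjusted p = 0.000528). Its 7 probe sets differed by 0.02 to 0.77, all upward, and 4 of them passed on their own. The difference of 0.77 rested largely on Smo shRNA replicate 3 (12.19, against 10.91 and 10.89 in replicates 1 and 2). Dim probe sets among the 7, at mean levels of 7.71 and 6.58, did not pass. Cebpg, a partner of Atf4 at its target sites, was 1.23-fold higher (0.30, SE 0.06, adjusted p = 0.000629), and Atf3, a stress-induced factor of the same family, 1.34-fold (0.42, SE 0.08, adjusted p = 0.000598).

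The largest increases of the branch were in Ddit3 and Trib3. Ddit3, which encodes the factor Chop, read 9.51, 9.21 and 9.37 in control arrays and 10.02, 10.22 and 10.29 in Smo shRNA arrays. It varied more within a line than most members and was still 1.76-fold higher with no overlap (0.81, SE 0.08, adjusted p = 2.88e-06). Trib3, a pseudokinase that restrains Atf4 and Chop, read 8.64, 8.67 and 8.66 in control arrays and 9.37, 9.46 and 9.39 in Smo shRNA arrays, or 1.68-fold higher (0.75, SE 0.06, adjusted p = 2.51e-07).

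Asns, asparagine synthetase, read 13.06, 13.02 and 13.10 in control arrays and 13.37, 13.38 and 13.26 in Smo shRNA arrays. This was a 1.21-fold increase with no overlap (0.28, SE 0.03, adjusted p = 1.19e-05). Chac1, which degrades glutathione, was 1.13-fold higher (0.18, SE 0.04, adjusted p = 0.00157).

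Not every stress target followed. Nupr1, a small stress-induced nuclear protein, read 11.98, 11.90 and 11.96 in control arrays and 11.33, 11.35 and 11.28 in Smo shRNA arrays. It was 1.54-fold lower (-0.62, SE 0.04, adjusted p = 1.97e-08), and all 5 of its probe sets were called lower. Sesn2 and Ddit4, which restrain mTORC1, had differences of -0.01 (adjusted p = 0.921) and -0.08 (adjusted p = 0.281). Ppp1r15a, which directs the phosphatase that reverses eIF2 phosphorylation, had a difference of 0.04 (adjusted p = 0.682). Ddit4 was called lower after quantile normalization (-0.11, adjusted p = 0.0392) and after centring each array on its median (-0.12, adjusted p = 0.0395).

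**Figure D3:**
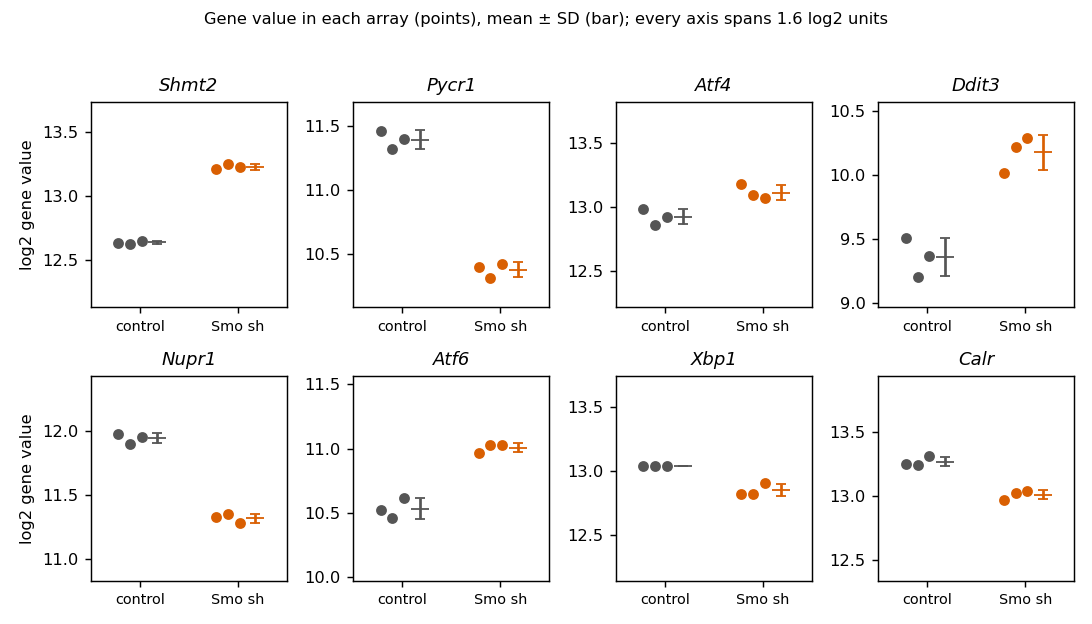
Log2 gene value in each array (points) with the mean ± SD of the 3 arrays beside them, for 8 genes in control shRNA (grey) and Smo shRNA (orange) cells, each axis covering the same span of log2 units. All 8 were picked among called members, and in all 8 panels the groups do not overlap, as in 47.8% of all genes tested. The step is widest for Pycr1 and Ddit3 and narrowest for Atf4 and Xbp1.

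Of 25 tested other Atf4 target genes, 11 were higher (44%) and 3 were lower (12%), with a median of 0.06. Among all genes tested, 21.3% were higher and 17.4% lower. The cystine importer Slc7a11 was higher by 1.40 (adjusted p = 6.68e-10), the cationic amino acid transporter Slc7a1 by 0.72 (adjusted p = 3.93e-09), and Wars, tryptophanyl-tRNA synthetase, by 0.75 (adjusted p = 1.43e-08). The 3 lower genes were Klhl24 (-0.86, adjusted p = 1.72e-08), the neutral amino acid transporter Slc38a2 (-0.21, adjusted p = 4.79e-05), and the secreted stress factor Gdf15 (-0.29, adjusted p = 0.00143). The lower share of this list was thus below that of all genes. After quantile normalization 5 of the list were lower, where 20.8% of all genes tested were lower.

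Promoter windows from RefSeq (GRCm38.p6), each with 250 bases before and 50 after a transcription start, were found for 36 of the 39 genes and searched on both strands. Cth, Atf6 and Manf had none in the table. The letters TGATGNAA, the core of the element bound by Atf4 with a C/EBP partner, were found in the windows of 7 members. Of these, 5 were among the 11 Atf4 branch genes, 1 among 9 enzymes and 1 among 13 chaperone branch genes. Of all 27025 genes with a window, 1219 (4.51%) held a match. The Atf4 branch was listed as Atf4 and its stress targets, so the matches there are a description and were not tested. The matches are shown because they fall in genes called in both directions. They are written as the motif reads, with the fixed letters in capitals and with positions from the transcription start:
Atf3, -110 to -103: TGATGcAA
Chac1, -193 to -186: TGATGcAA
Trib3, +15 to +22: TGATGtAA
Asns, -23 to -16: TGATGaAA
Nupr1, -110 to -103: TGATGcAA
Herpud1, -112 to -105: TGATGcAA
Pycr1, -103 to -96: TGATGcAA

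Among the 5 Atf4 branch genes with a match, Asns, Trib3, Atf3 and Chac1 were called higher and Nupr1 lower. The enzyme with a match, Pycr1, was called lower, and Herpud1 did not pass. A match is a description of the window, not a site shown to be bound. The 3 members with the smallest adjusted p among these are printed whole, 5′ to 3′ along the gene, with the match in capitals on whichever strand it lies:
Pycr1, chr11:120643699-120643998, minus strand: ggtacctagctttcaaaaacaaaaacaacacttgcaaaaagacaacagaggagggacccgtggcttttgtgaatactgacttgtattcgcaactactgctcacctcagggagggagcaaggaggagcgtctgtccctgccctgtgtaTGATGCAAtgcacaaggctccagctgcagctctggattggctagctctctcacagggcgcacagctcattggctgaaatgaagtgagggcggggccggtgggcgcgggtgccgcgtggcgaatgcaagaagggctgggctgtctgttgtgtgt
Nupr1, chr7:126625421-126625720, minus strand: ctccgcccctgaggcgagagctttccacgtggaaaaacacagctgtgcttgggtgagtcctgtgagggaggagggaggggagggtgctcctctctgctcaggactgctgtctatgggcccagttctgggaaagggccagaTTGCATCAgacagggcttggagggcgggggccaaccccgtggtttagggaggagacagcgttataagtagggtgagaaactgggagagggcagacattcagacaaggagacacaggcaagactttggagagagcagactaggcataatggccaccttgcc
Trib3, chr2:152344011-152344310, minus strand: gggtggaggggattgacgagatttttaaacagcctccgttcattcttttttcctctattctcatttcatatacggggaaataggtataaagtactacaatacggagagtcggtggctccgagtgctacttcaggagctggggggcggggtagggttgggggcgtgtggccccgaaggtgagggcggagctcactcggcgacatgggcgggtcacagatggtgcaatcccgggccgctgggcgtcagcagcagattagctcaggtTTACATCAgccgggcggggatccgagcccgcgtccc

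The sensors of the unfolded protein response differed among themselves. Atf6 read 10.52, 10.46 and 10.62 in control arrays and 10.97, 11.03 and 11.02 in Smo shRNA arrays. It was 1.39-fold higher with no overlap (0.48, SE 0.05, adjusted p = 4.03e-06), and 22 of its 25 probe sets were called higher. Eif2ak3, the kinase Perk, read 9.55, 9.45 and 9.61 in control arrays and 9.68, 9.73 and 9.65 in Smo shRNA arrays. These groups did not overlap either, but the difference of 0.15 missed the threshold (SE 0.06, adjusted p = 0.0599). It passed when only the brighter probe sets, above the 75th percentile, were kept (0.19, adjusted p = 0.0193) and with array weights (0.16, adjusted p = 0.00782).

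Ern1, the kinase and nuclease Ire1, read 10.05, 9.99 and 10.04 in control arrays and 10.15, 10.07 and 10.17 in Smo shRNA arrays, a difference of 0.10 that did not pass (SE 0.05, adjusted p = 0.141). Its substrate Xbp1 read 13.04, 13.04 and 13.04 in control arrays and 12.82, 12.82 and 12.90 in Smo shRNA arrays. Xbp1 was thus 1.14-fold lower (-0.19, SE 0.03, adjusted p = 6.53e-05), with all 14 probe sets lower and 10 called. One of the 14 differed by -0.68 and the smallest difference was -0.07. Among the 39 genes, 32 had groups that did not overlap, 19 with Smo shRNA higher and 13 with Smo shRNA lower. Across all genes tested, 47.8% had groups that did not overlap, 26.4% with Smo shRNA higher and 21.4% with Smo shRNA lower.

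Chaperones of the endoplasmic reticulum were lower by small amounts. Calr, the lectin chaperone calreticulin, read 13.25, 13.24 and 13.31 in control arrays and 12.97, 13.02 and 13.04 in Smo shRNA arrays. With no overlap, it was 1.20-fold lower (-0.26, SE 0.03, adjusted p = 3.97e-06). Manf, a secreted factor induced by this stress, read 12.38, 12.33 and 12.32 in control arrays and 12.09, 12.01 and 11.99 in Smo shRNA arrays. At 1.24-fold lower (-0.31, SE 0.03, adjusted p = 6.09e-06) it was the largest decrease of the branch.

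Hsp90b1, the Hsp90 of this compartment, read 13.49, 13.49 and 13.47 in control arrays and 13.29, 13.35 and 13.34 in Smo shRNA arrays. All 22 of its probe sets were lower and 19 were called, for a 1.11-fold decrease (-0.16, SE 0.02, adjusted p = 7.40e-05). Creld2, a stress-induced protein of the compartment, read 12.39, 12.31 and 12.38 in control arrays and 12.14, 12.15 and 12.02 in Smo shRNA arrays. Its decrease was 1.19-fold (-0.25, SE 0.04, adjusted p = 0.000131).

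Hspa5, the chaperone BiP and the best known marker of the response, read 13.71, 13.65 and 13.73 in control arrays and 13.65, 13.62 and 13.60 in Smo shRNA arrays. The lowest control value and the highest Smo shRNA value nearly met. The 1.05-fold decrease passed (-0.07, SE 0.02, adjusted p = 0.0197), but the call was lost in 8 of 17 alternatives. They included the fits without control replicate 1 (-0.06, adjusted p = 0.169), without control replicate 3 (-0.05, adjusted p = 0.183) and without Smo shRNA replicate 3 (-0.06, adjusted p = 0.082). Over all 17 its adjusted p ran from 0.00157 to 0.249, with the difference between -0.11 and -0.05.

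Of the co-chaperones, Dnajc3 was lower by -0.28 (SE 0.04, adjusted p = 0.000195), Dnajb9 by -0.17 (SE 0.05, adjusted p = 0.013) and Sdf2l1 by -0.14 (SE 0.03, adjusted p = 0.00389). Dnajb9 kept its call without control replicate 2 and lost it without any other single array (5 fits), with differences of -0.19 to -0.14 and adjusted p of 0.0642 to 0.191. The Sdf2l1 call was lost without control replicate 1 (-0.12), control replicate 3 (-0.13), Smo shRNA replicate 2 (-0.14) and Smo shRNA replicate 3 (-0.11). Leaving out 1 array left 7 to 10 of the 14 genes called lower and 1 called higher.

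The disulfide isomerases Pdia4 and Pdia6 differed in direction. Pdia4 was 1.08-fold lower (-0.12, SE 0.03, adjusted p = 0.00276). Pdia6 read 11.22, 11.15 and 11.25 in control arrays and 11.43, 11.44 and 11.45 in Smo shRNA arrays. It was 1.18-fold higher (0.24, SE 0.04, adjusted p = 0.000278) and the only member of the branch called higher, with 17 of 18 probe sets upward. Pdia6 lies on chromosome 12, and whether its rise was shared with other genes of that chromosome was not tested. The same holds for the other genes named here, of the branches and of the wider lists, which were not compared by chromosome. Canx, the membrane-bound relative of Calr, did not pass (-0.04, 95% interval -0.11 to 0.02, adjusted p = 0.316).

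Among factors that clear misfolded proteins, Syvn1, the ubiquitin ligase Hrd1, was 1.19-fold lower (-0.25, SE 0.05, adjusted p = 0.00169). Herpud1, which works beside it, had a difference of 0.04 (adjusted p = 0.52), and Edem1, which helps send misfolded glycoproteins to degradation, of 0.02 (adjusted p = 0.728). For Edem1 the 95% interval was -0.05 to 0.09.

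Other genes of folding and degradation in this compartment leaned the same way: of 41 tested, 24 were lower and 5 were higher, with a median of -0.15. The prolyl isomerase Fkbp14 (-0.65, adjusted p = 1.88e-07), the disulfide reductase Dnajc10 (-0.52, adjusted p = 5.18e-07) and Ubxn4, an adaptor of degradation (-0.51, adjusted p = 2.28e-06), were the lower genes with the smallest p. On the higher side were Mogs, which trims new glycans (0.68, adjusted p = 4.44e-07), Sel1l, the partner of Syvn1 (0.42, adjusted p = 2.23e-06), and Ero1a, an oxidase of disulfide formation (0.26, adjusted p = 0.00175). The count of lower genes was 15 without control replicate 1 and 15 without control replicate 3. That of higher genes was 3 without control replicate 1, 2 without control replicate 2 and 3 without Smo shRNA replicate 2.

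**Figure D4:**
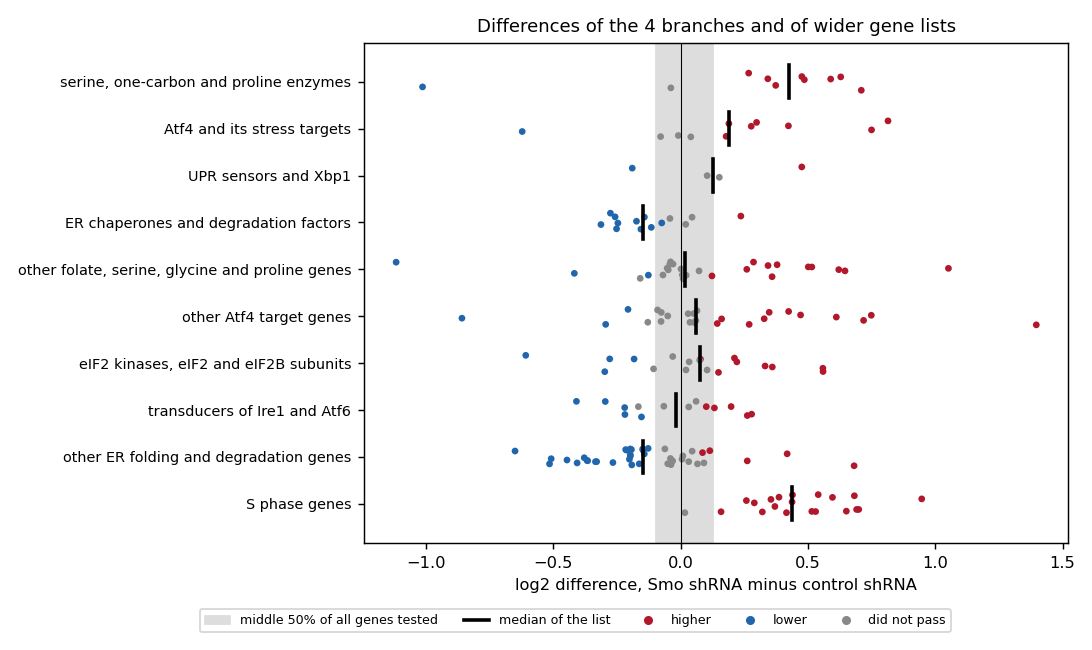
Log2 differences (x axis, Smo shRNA minus control shRNA) of the tested genes (points) in the 4 branches, 5 wider lists and the S phase list (y axis), with the list's median as a black bar and the middle of all genes tested as a grey band. Both endoplasmic reticulum lists have a median of -0.15 and lie mostly left of 0, and the biosynthetic enzymes (0.42) and S phase genes (0.44) lie mostly right.

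The endoplasmic reticulum stress element, CCAAT and CCACG with any 9 bases between them, bound by Atf6 and Xbp1 together with NF-Y, was searched in the same windows. It was found in 8 of the 13 chaperone branch genes with a window and in 0 of the 23 windowed members of the other branches. Of all 27025 genes, 37 (0.137%) held it. The element is known from genes of this kind, so its presence is a description and was not tested. The 9 matches are given as the motif reads, with fixed letters in capitals:
Hspa5, -65 to -47: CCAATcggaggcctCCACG
Calr, -162 to -144: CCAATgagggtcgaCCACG
Hsp90b1, -212 to -194: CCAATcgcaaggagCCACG
Hsp90b1, -107 to -89: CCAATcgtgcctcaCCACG
Canx, -145 to -127: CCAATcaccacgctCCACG
Pdia6, -98 to -80: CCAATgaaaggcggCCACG
Dnajc3, -105 to -87: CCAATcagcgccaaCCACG
Creld2, -126 to -108: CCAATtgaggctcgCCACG
Syvn1, -44 to -26: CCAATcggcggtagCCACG

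Of those 8 genes, 6 were called lower, Pdia6 was called higher and Canx did not pass, with a median of -0.20. Of the 5 windowed genes of the branch without the element, 3 were called lower and 2 did not pass, with a median of -0.12. A shorter form, ATTGG and CCACG with any 1 base between, was found in Herpud1 alone among the members and in 12 of all genes (0.044%). No match of 1 motif overlapped a match of another in these windows. The 3 lower genes with the smallest adjusted p are shown with the matches in capitals, 5′ to 3′ along the gene:
Calr, chr8:84846882-84847181, minus strand: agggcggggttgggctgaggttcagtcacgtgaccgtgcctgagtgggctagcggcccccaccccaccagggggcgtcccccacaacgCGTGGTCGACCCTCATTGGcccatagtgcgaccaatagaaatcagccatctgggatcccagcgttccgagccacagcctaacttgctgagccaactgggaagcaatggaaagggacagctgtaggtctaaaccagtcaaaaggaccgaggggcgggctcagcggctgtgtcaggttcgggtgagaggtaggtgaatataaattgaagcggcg
Hsp90b1, chr10:86705395-86705694, minus strand: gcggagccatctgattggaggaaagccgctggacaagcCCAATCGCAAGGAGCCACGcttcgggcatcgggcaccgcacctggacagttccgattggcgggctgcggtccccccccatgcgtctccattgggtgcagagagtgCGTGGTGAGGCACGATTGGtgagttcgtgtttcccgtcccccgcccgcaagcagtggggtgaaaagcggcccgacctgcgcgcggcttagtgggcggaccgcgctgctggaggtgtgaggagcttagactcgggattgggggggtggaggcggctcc
Creld2, chr15:88819396-88819695, plus strand: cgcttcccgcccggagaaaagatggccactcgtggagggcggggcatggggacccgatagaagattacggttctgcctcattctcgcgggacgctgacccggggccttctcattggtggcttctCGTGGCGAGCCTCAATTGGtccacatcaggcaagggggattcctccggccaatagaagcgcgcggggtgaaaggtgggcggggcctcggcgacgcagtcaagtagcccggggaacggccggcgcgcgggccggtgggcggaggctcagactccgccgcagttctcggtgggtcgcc

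Probe sets of a gene mostly moved together. Of 594 probe sets of the 39 genes, 215 were called higher and 119 lower on their own, against 17.5% higher and 12.4% lower (30% in either direction) among all probe sets tested. Without a variance trend the lower count was 57. In the biosynthetic branch 129 of 184 were called higher and 16 lower, and 15 of the 16 belonged to Pycr1. In the chaperone branch 88 of 223 were called lower and 15 higher, 14 of the latter in Pdia6. All 34 probe sets of Mthfd1l, all 23 of Aldh18a1 and all 17 of Shmt2 were upward. Single probe sets stood off from their gene. In Pycr1 1 probe set differed by 0.33 and did not pass, against a gene difference of -1.01. In Syvn1 and Canx single probe sets differed by -0.91 and -0.83, against gene differences of -0.25 and -0.04.

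**Figure D5:**
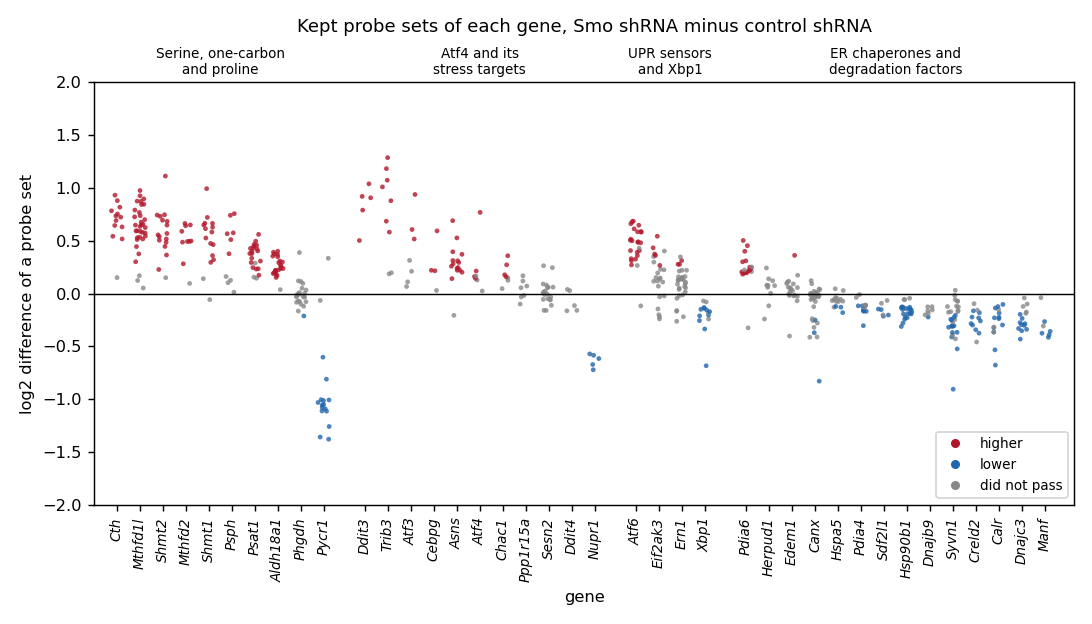
Log2 difference (y axis, Smo shRNA minus control shRNA) of every kept probe set (points) of each gene (x axis), with red for called higher, blue for called lower and grey for those that did not pass. The points of a gene lie mostly on 1 side of 0, as for Mthfd1l and Hsp90b1, and Pycr1 stands apart with differences from -1.38 to 0.33.

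By size, 5 of the 39 genes were at least 1.5-fold higher, namely Ddit3, Trib3, Cth, Mthfd1l and Shmt2, and 2 were at least 1.5-fold lower, Pycr1 and Nupr1. Among all genes tested, 2.71% were at least 1.5-fold higher and 3.32% at least 1.5-fold lower. No sensor, chaperone or degradation factor of the list reached that size.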

How the data were processed

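The authors deposited a table of 1256831 exon probe sets as log2 values. The scale was read from the values (0 to 15.14), and array medians were close, at 6.56 to 6.59, as they would be after normalization between arrays. The sources used here do not say whether or how the values were normalized. A total of 318760 probe sets had 1 gene symbol in the platform annotation, updated through RefSeq (GRCm38.p6) where a synonym belonged to 1 gene. Probe sets with a mean at or above the median of all (6.56) were kept, and genes with 3 or more were joined by median polish.

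The 2 groups were set against each other in limma 3.58.1 under R 4.3.3 (lmFit, eBayes with a variance trend, two-sided, Benjamini-Hochberg over all 16871 genes, threshold 0.05). The same was done for kept probe sets. The calculation was tested on simulated data. The number of arrays limits the precision, and folds may understate changes of dim genes. Some bright probe sets differed less than dimmer ones of the same gene, and others did not. In Calr 1 probe set at a mean level of 14.25 differed by -0.10, 1 at 10.93 by -0.68 and 1 at 10.43 by -0.15. In Asns 1 at 13.44 differed by 0.14, 1 at 10.52 by 0.69 and 1 at 7.84 by -0.21. Whether folds of dim genes, or of very bright genes through compression of bright signals, were understated was not tested.

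The members, branches and lists were chosen with earlier results of these data known. Atf4, Xbp1, Hspa5 and the 3 sensors are given in every array. So are, per branch, up to 4 called genes in each direction with the smallest adjusted p, and up to 3 per wider list are named. The promoters printed are those of the first 3 members per motif. Listed genes with fewer than 3 kept probe sets were not analysed here. Other genes named beside these, such as Mthfd2l and Aldh1l2, were chosen after their values were seen. Alternatives covered the filter, the summary, the minimum number of probe sets, normalization, the variance model, a replicate block and each array left out.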

Additional observations from a re-analysis of the deposited data

How the results depend on the processing

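Across 17 alternatives no called member changed direction. The counts of called members stayed within 1.5 times of those given, with these exceptions. With the stricter filter 2 sensor branch genes were higher, and with array weights 2. With the median of probe sets 2 enzymes were lower, and 2 Atf4 branch genes were lower with quantile normalization and 2 with centred arrays. Without a variance trend 57 member probe sets were called lower, against 119, and the calls of Hspa5 (-0.07, adjusted p = 0.249), Pdia4 (-0.12, adjusted p = 0.079) and Sdf2l1 (-0.14, adjusted p = 0.0602) were lost. The cause was not tested. Leaving out 1 array gave 17 higher members in each fit, 10 to 13 lower members, and 2669 to 2913 higher and 2075 to 2770 lower genes in all, where fewer arrays entered each fit.

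Among the wider lists, quantile normalization and centring each gave 5 lower folate, serine, glycine and proline genes (against 3 as reported). Quantile normalization and array weights each gave 5 lower Atf4 targets (against 3, with 4 under the replicate block), and centring and no variance trend each gave 3 higher folding and degradation genes (against 5). The transducers called higher were 2 to 3 (against 5) under 5 alternatives of filter, summary, minimum, centring or variance trend, 4 under the replicate block and 1 to 3 without 1 array. Among stromal markers 1 was higher with the stricter filter and with array weights (against 0).

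Same-numbered samples deviated together at r = 0.08, 0.102 and 0.389, so the numbers were not taken as pairs. With the replicate block 17 members were higher and 13 lower, and 3787 and 3137 genes in all. The Cebpg value could not be had with at least 5 probe sets. The filter was set on all 6 arrays and kept when 1 was left out.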

Other observations

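Of 18 genes around eIF2, 8 were higher (44.4%) and 4 were lower (22.2%) in Smo shRNA cells, with a median of 0.08. Among all genes tested, 21.3% were higher and 17.4% lower, so the lower share of this list was near that of all genes. Among the 11 that encode eIF2 kinases or subunits of eIF2 and eIF2B, 6 were higher and 1 was lower, the kinase gene Eif2ak2 (-0.18, adjusted p = 0.0321). The other 7 encode regulators and other initiation factors, of which 2 were higher and 3 were lower. Eif2b2, a subunit of the exchange factor that eIF2 phosphorylation inhibits, was higher by 0.56 (limma adjusted p = 1.14e-07), and Eif2s1, the phosphorylated subunit itself, by 0.56 (adjusted p = 4.95e-07). Eif2ak4, which encodes Gcn2, was higher by 0.33 (adjusted p = 0.000232). The 3 lower genes among the other 7 were Impact, an inhibitor of Gcn2 (-0.28, adjusted p = 3.80e-05), Mcts1 (-0.61, adjusted p = 0.000797) and Denr (-0.30, adjusted p = 0.00449), the last 2 forming a reinitiation complex. Mcts1 varied among Smo shRNA arrays (9.34, 9.41 and 9.93), with replicate 3 close to the control arrays (10.07, 10.25 and 10.19). The count of lower genes among the 18 was 2 without control replicate 2, control replicate 3 or Smo shRNA replicate 1, and 1 without Smo shRNA replicate 2.

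Among 14 tested transducers of Ire1 and Atf6, 5 were higher (35.7%) and 5 were lower (35.7%), with a median of -0.02. Among all genes tested, 21.3% were higher and 17.4% lower. Both proteases that cut Atf6 were higher, Mbtps2 by 0.28 (adjusted p = 0.000325) and Mbtps1 by 0.20 (adjusted p = 0.0029), as was the kinase gene Map3k5 (0.26, adjusted p = 0.00663). Creb3, a membrane-bound factor cut in the same way, was lower (-0.41, adjusted p = 2.10e-05), as were Tmbim6 (-0.22, adjusted p = 3.00e-05) and Creb3l1 (-0.30, adjusted p = 0.00173). The counts changed with single arrays: the higher count was 1 to 3 without any 1 of the 6 arrays, and the lower count was 3 without control replicate 1, Smo shRNA replicate 1 or Smo shRNA replicate 2.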
